A study of Mus musculus with 10 samples.

Results

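The genes described here make, sense and clear the inhibitory transmitter GABA in the brain. They were 26 genes named for that role: 10 subunits of the GABA-A receptor, both subunits of the GABA-B receptor, 5 genes of GABA synthesis, transport and breakdown, 2 chloride transporters, 2 proteins of the inhibitory synapse and 5 markers or lineage factors of interneurons. They were chosen by name, through every probe set annotated to exactly 1 of these symbols. That gave 28 of 21789 single-symbol probe sets and 26 of 19938 genes. The samples were whole hippocampi, left and right together, from male mice aged 16 weeks, with each mouse on an array of its own. The 5 Dp1Yey mice carried a segmental duplication of mouse chromosome 16 (Mmu16) that runs from Lipi to Zbtb21 and is homologous to human chromosome 21, and the 5 controls were littermates without it. Both groups had a C57BL/6 background, given as C57BL/6N in the labels and as C57BL/6J in the methods. All 26 genes lay outside the duplicated interval, so the duplication did not change their copy number. They were in 2 copies in both groups, except the X-linked Gabra3, which was in 1 copy in these males. Abat is on Mmu16 but starts at 8513429, far from the interval, which spans 75540514 to 97962627 (GRCm38.p6).

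GABA is made from glutamate by glutamic acid decarboxylase, loaded into synaptic vesicles and released by interneurons. The GABA-A receptor is a chloride channel of several subunits, and the GABA-B receptor is a G protein-coupled dimer that acts through potassium and calcium channels. Whether opening of the chloride channel inhibits a cell depends on its chloride gradient, which importing and exporting cotransporters set against each other. In the hippocampus a small and diverse population of interneurons supplies this inhibition to pyramidal and granule cells. Altered inhibition is a long-standing subject of work on Down syndrome mouse models.

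None of the 26 genes was differentially expressed between Dp1Yey and control hippocampi. With limma over all genes and Benjamini-Hochberg adjustment, 0 of 26 passed an adjusted p of 0.05, against 0.5% of the 19795 genes outside the duplication (99 genes, 78 higher and 21 lower in Dp1Yey). At an unadjusted p under 0.05 there were 2, the receptor subunits Gabra4 and Gabra3, both lower in Dp1Yey. That is 7.69% of the 26, while by the same measure 10.8% of the genes outside the duplication were lower and 8.45% were higher. A rank statistic of the kind the study used called 0 of 26, against 3.14% of the genes outside. In 0 of 26 genes did the 5 Dp1Yey arrays and the 5 control arrays separate without overlap, against 4.55% outside.

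The differences were small, and the confidence interval of each gene bounded its difference in array signal in this fit. The intervals hold for each gene on its own and do not cover the choice of scaling. The estimates ran from 0.899-fold for Gabra3 to 1.09-fold for Pvalb. The 95% confidence interval lay within 1.1-fold of equality for 10 genes, within 1.2-fold for 22, within 1.25-fold for 25 and within 1.5-fold for all 26. The exception at 1.25-fold was Pvalb, whose interval reached 1.253-fold. Without control replicate 1 the interval of Pvalb reached 1.19-fold, while those of Gabra2 (0.793-fold), Gabra3 (0.788-fold) and Dlx1 (1.27-fold) passed 1.25-fold. The interval was narrowest for Slc12a5, 0.12 wide on the log2 scale, and widest for Dlx1, at 0.59. Of the 26 estimates 11 were above 0, or 42.3%, against 41.9% of the genes outside the duplication. The share was 46.1% among those of the outside genes that exceeded a background level, defined below. The median log2 difference was −0.022, against −0.015 outside. The number above 0 depended on the scaling, with 7 of 26 after quantile normalisation of the deposited values and 16 of 26 when each array was centred on the median of all its probe sets.

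**Figure D1:**
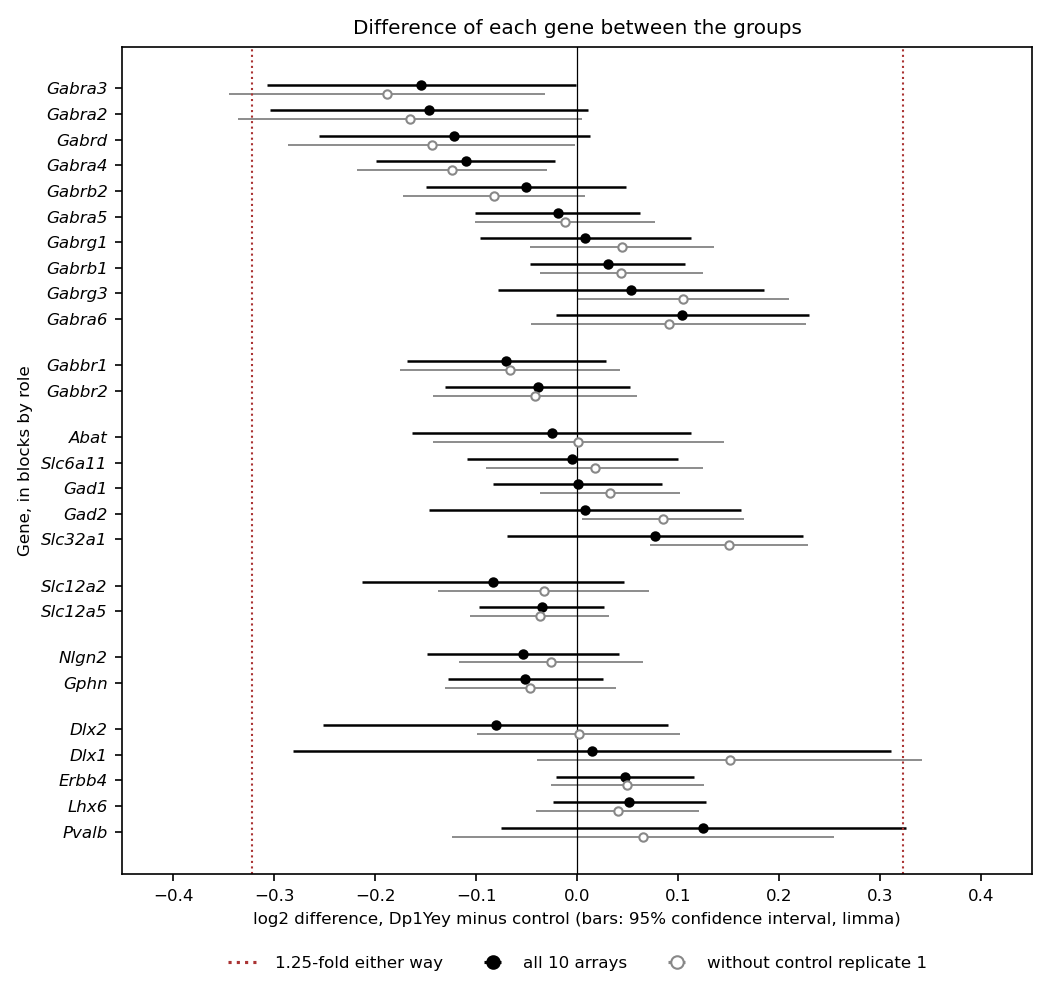
The log2 difference of each gene between Dp1Yey and control (x axis), with its 95% confidence interval from limma, in blocks by role. Filled points use all 10 arrays and open points leave out control replicate 1. The dotted lines mark 1.25-fold in either direction. Gabra3 and Gabra4 have intervals below 0 with all arrays, and Slc32a1 and Gad2 have intervals above 0 only without control replicate 1.

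Markers of the labelled tissue were present, and the arrays differed in markers of neighbouring tissue. A background level was set at a log2 signal of 5.45, below which 90% of 1015 olfactory receptor genes had their mean. All 11 measured markers of pyramidal cells and all 12 of dentate granule cells exceeded it. The markers of choroid plexus, the epithelium that makes cerebrospinal fluid and lies next to the hippocampus, varied most of the marker lists. Their mean log2 signal ran from 7.04 to 8.72 on the control arrays and from 6.96 to 7.59 on the Dp1Yey arrays. All 10 markers had a lower group mean in Dp1Yey, including Clic6, the 1 marker that lies in the duplicated interval. Control replicates 2 and 3, at 7.22 and 7.04, were within the Dp1Yey range. In these bulk samples, fewer cells of a type and less RNA per cell cannot be told apart. The mean of the 12 pan-neuronal markers was 11.71 to 11.75 in Dp1Yey and 11.65 to 11.70 in control, with 10 of 12 higher in Dp1Yey. Of the microglial markers 10 of 11 were higher in Dp1Yey, with list means of 8.57 to 8.66 against 8.38 to 8.57. The part of these shifts in the results below was not tested. Control replicate 1 stood apart in several of the genes described here, and where leaving it out moved a difference well away from its first value, both are given. Over all genes above the background level control replicate 2 stood farthest apart. The first principal component, the main axis of variation between arrays, held 37.2% of the variance. It ran from −7.97 to −2.96 on the Dp1Yey arrays and from −0.72 to 19.4 on the control arrays, with control replicate 2 highest. The part of this shift between groups in the differences was not tested.

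Of the 26 genes, 25 exceeded the background level, as did 15066 of the 19795 genes outside the duplication. Of those 15066 genes 0.637% were called by limma, 5.03% separated without overlap and 3.98% were called by the rank statistic. At an unadjusted p under 0.05 (limma), 11.3% of them were lower and 10.7% higher. The exception among the 26 was Gabra6, the alpha 6 subunit known from cerebellar granule cells. Its log2 signal was 4.81, 4.63, 4.65, 4.91 and 4.63 on the Dp1Yey arrays and 4.57, 4.62, 4.57, 4.70 and 4.66 on the control arrays. The groups overlapped, and all 10 values were below the background level. Dp1Yey replicates 4 and 1 were the highest for Gabra6. Cerebellar marker genes also had their highest list mean in Dp1Yey replicate 4, at 7.14, against 6.77 to 7.07 on the other arrays, and their part in the Gabra6 values was not tested.

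**Figure D2:**
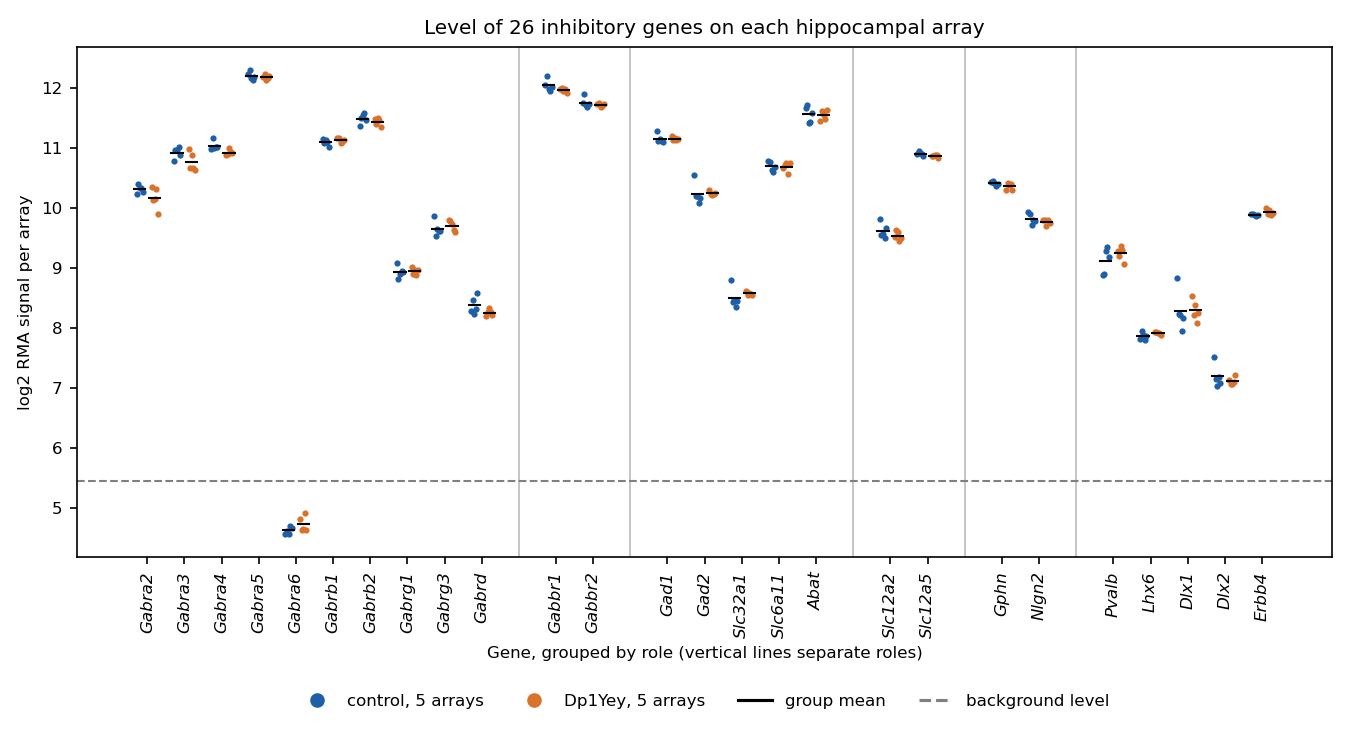
The log2 RMA signal (y axis) of the 26 genes on each of 5 control and 5 Dp1Yey arrays, grouped by role along the x axis, with the group means as bars and the background level of 5.45 as a dashed line. Signals of different genes come from different probes and are not compared with each other. Within each gene the groups overlap, and Gabra6 alone lies below the background level.

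The sequences upstream of 5 of these genes are shown: the pair of receptor subunits with the lowest p-values, and the trio that marks GABA-releasing neurons and varied together across arrays. These genes were picked by their values in these data, and no result depends on the sequences. Each is a promoter window of RefSeq (GRCm38.p6), from 250 bases before to 50 bases after a transcript start, written 5′ to 3′ on the strand of the gene with each CG dinucleotide in capitals. Gabra4 is at chr5:71658259-71658558 on the minus strand and Gabra3 at chrX:72656870-72657169 on the minus strand. Gad1 is at chr2:70561879-70562178, Gad2 at chr2:22622077-22622376 and Slc32a1 at chr2:158610508-158610807, all on the plus strand. For these last 3 genes the start that RefSeq's window uses lies inside the annotated span of the gene.
Gabra4: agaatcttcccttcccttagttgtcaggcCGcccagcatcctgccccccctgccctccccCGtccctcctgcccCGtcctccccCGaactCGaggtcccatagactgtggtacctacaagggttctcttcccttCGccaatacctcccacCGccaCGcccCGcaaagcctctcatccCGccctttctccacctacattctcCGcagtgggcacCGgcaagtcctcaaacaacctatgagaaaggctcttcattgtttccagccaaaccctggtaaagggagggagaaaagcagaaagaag
Gabra3: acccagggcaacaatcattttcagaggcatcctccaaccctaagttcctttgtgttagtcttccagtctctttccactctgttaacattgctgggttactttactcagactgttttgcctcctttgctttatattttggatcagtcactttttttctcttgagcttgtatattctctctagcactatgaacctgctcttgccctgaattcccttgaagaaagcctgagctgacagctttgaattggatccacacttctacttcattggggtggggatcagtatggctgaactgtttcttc
Gad1: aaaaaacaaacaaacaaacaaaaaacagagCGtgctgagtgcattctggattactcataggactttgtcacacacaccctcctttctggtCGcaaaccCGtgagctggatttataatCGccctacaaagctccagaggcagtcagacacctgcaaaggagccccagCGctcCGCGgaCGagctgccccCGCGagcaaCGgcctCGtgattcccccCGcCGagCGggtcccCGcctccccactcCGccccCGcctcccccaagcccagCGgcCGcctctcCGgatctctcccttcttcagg
Gad2: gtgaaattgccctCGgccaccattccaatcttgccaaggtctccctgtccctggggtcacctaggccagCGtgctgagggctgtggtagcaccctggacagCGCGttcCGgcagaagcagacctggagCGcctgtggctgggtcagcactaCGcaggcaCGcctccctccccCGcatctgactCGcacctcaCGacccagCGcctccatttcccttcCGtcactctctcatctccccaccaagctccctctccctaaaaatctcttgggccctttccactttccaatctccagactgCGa
Slc32a1: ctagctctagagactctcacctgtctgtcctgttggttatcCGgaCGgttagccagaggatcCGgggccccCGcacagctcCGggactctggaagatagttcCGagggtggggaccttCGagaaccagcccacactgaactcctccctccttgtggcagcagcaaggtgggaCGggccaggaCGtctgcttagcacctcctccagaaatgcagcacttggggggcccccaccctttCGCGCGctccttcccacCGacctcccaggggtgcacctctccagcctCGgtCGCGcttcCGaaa

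The windows of Gad1, Slc32a1, Gad2 and Gabra4 held 21, 17, 14 and 12 CG dinucleotides, and that of Gabra3 held 0. A window was found for 23 of the 26 genes, in 31 windows, whose median was 17 CG against 7 over all 32851 RefSeq windows. The motif TATAAA, searched on both strands, was present in the Gabra3 and Gad1 windows, in 16.1% of the windows of the 26 genes and in 13.6% of all windows. In the Gabra3 and Gad1 windows the match lay on the strand opposite to the gene and reads TTTATA in the sequences shown. The letters TAATT, the core bound by homeodomain proteins such as those of Dlx1 and Dlx2, were in none of the 5 windows on either strand, in 19.4% of the windows of the 26 genes and in 27% of all. These matches describe the windows and were not related to the expression values.

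Among the GABA-A receptor subunits, 6 of 10 estimates were below 0 and the lowest p-values of all 26 genes were found. Gabra4 encodes the alpha 4 subunit, which in the hippocampus is known chiefly from dentate granule cells. It measured 10.88, 10.89, 10.99, 10.92 and 10.92 on the Dp1Yey arrays and 10.97, 11.16, 10.99, 11.01 and 11.01 on the control arrays. Apart from Dp1Yey replicate 3, every Dp1Yey array was below every control array. The log2 difference was −0.11 (95% CI −0.20 to −0.022), with an adjusted p of 0.182 (limma, n = 5 per group). Without control replicate 1, the lowest control array, the groups did not overlap and the difference was −0.12 (adjusted p = 0.180, limma). That separation was narrow, with 10.9862 on Dp1Yey replicate 3 and 10.9882 on control replicate 3. On the same arrays 3.37% of the genes outside the duplication separated in that direction. For Gabra4 control replicate 1 was the only control array not above all Dp1Yey arrays, so leaving it out fixed the separation in advance. The share of 3.37% is therefore not a like background. Without control replicate 2, the highest array, the difference was −0.078 (adjusted p = 0.276). Dentate markers also had lower values in Dp1Yey: 10 of 12 were lower, with a median of −0.12, and list means of 8.999 to 9.107 against 9.023 to 9.203 in control. Their part in the Gabra4 difference was not tested.

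Gabra3, the X-linked gene of the alpha 3 subunit, measured 10.98, 10.66, 10.88, 10.66 and 10.63 in Dp1Yey and 10.78, 10.95, 10.96, 11.01 and 10.88 in control. Dp1Yey replicates 2, 4 and 5 lay below all control arrays, while Dp1Yey replicate 1 was below control replicate 4 alone. For Gabra3 the log2 difference was −0.15 (95% CI −0.31 to −0.0011, adjusted p = 0.253, limma), and −0.19 without control replicate 1 (adjusted p = 0.207). Gabra2, for the alpha 2 subunit of synapses on the axon initial segment, gave nearly the same estimate, −0.15 (95% CI −0.30 to 0.011, adjusted p = 0.285). Its spread was wider in Dp1Yey (10.16 ± 0.176, SD) than in control (10.31 ± 0.0597), and Dp1Yey replicate 5, at 9.90, was the lowest array. Without that array the Gabra2 difference was −0.080. Gabrd encodes the delta subunit, which partners with alpha 4 in receptors outside the synapse. Its mean was 8.25 ± 0.0537 in Dp1Yey and 8.37 ± 0.145 in control, a difference of −0.12 (95% CI −0.26 to 0.012, adjusted p = 0.294), and the groups overlapped. It was −0.070 without control replicate 5 and −0.14 without control replicate 1.

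Gabra5, the alpha 5 subunit of extrasynaptic receptors and a hallmark of hippocampal pyramidal cells, was close to equal in the groups. Its log2 signal was 12.19, 12.23, 12.13, 12.16 and 12.19 in Dp1Yey and 12.23, 12.29, 12.17, 12.12 and 12.18 in control. The ranges lay almost on top of each other. The difference was −0.019 (95% CI −0.10 to 0.062, adjusted p = 0.792). The beta subunits, which with alpha subunits form the GABA binding site, differed by 0.030 for Gabrb1 and by −0.051 for Gabrb2. Gabrb2 was the one gene with several probe sets, and its 3 probe sets gave −0.0068, −0.082 and −0.051. The gamma subunits Gabrg1 and Gabrg3 differed by 0.0082 and 0.053. With all arrays these had adjusted p-values between 0.537 and 0.939 (limma). Without control replicate 1 the differences of Gabrb2 and Gabrg3 were −0.083 and 0.10, and without control replicate 2 that of Gabrg3 was 0.023.

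Several subunit genes are neighbours. Gabrg1, Gabra2, Gabra4 and Gabrb1 lie in that order on chromosome 5 between 70751047 and 72149572, and the transcript starts of Gabra4 (minus strand) and Gabrb1 (plus strand) are 387 bases apart in overlapping head-to-head orientation. Their differences were not alike. Gabra2 and Gabra4 had estimates of −0.15 and −0.11, whereas Gabrg1 and Gabrb1 had 0.0082 and 0.030. On chromosome 7 Gabrg3 and Gabra5 gave 0.053 and −0.019. Differences between neighbours were not tested.

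The GABA-B receptor genes did not separate the groups. Gabbr1, which binds GABA, measured 11.98, 12.00, 11.95, 11.98 and 11.92 in Dp1Yey and 12.05, 12.19, 11.99, 11.94 and 12.01 in control. Control replicate 2 was the highest array for Gabbr1 and for Gabbr2, the partner that couples to the G protein. The differences were −0.070 (95% CI −0.17 to 0.028, adjusted p = 0.391) and −0.039 (95% CI −0.13 to 0.052, adjusted p = 0.609). Without control replicate 2 they were −0.031 and −0.0023.

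Genes that define GABA-releasing neurons had similar means in both groups but unequal values among the control arrays. Gad1 encodes the larger form of glutamic acid decarboxylase. Its log2 signal was 11.19, 11.12, 11.16, 11.12 and 11.14 in Dp1Yey and 11.27, 11.12, 11.14, 11.12 and 11.09 in control. Gad2 encodes the smaller form, and it measured 10.30, 10.22, 10.21, 10.23 and 10.25 in Dp1Yey and 10.54, 10.19, 10.20, 10.08 and 10.15 in control. The vesicular GABA transporter gene Slc32a1 measured 8.62, 8.55, 8.58, 8.57 and 8.55 in Dp1Yey and 8.79, 8.43, 8.47, 8.35 and 8.44 in control. For all 3 genes control replicate 1 was the highest of the 10 arrays, and for Gad2 and Slc32a1 the other 4 control arrays were all below the 5 Dp1Yey arrays. These 3 genes, and Dlx1, Dlx2 and Pvalb below, are given by array because of what their values showed.

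With all arrays the differences were 0.00047 for Gad1 (95% CI −0.083 to 0.084, adjusted p = 0.996), 0.0075 for Gad2 (95% CI −0.15 to 0.16, adjusted p = 0.963) and 0.077 for Slc32a1 (95% CI −0.070 to 0.22, adjusted p = 0.527). Without control replicate 1, Slc32a1 was higher in Dp1Yey by 0.15 (95% CI 0.072 to 0.23, 1.11-fold), with an adjusted p of 0.0815 (limma, n = 5 and 4). Gad2 was then higher by 0.085 (95% CI 0.0047 to 0.17, 1.06-fold, adjusted p = 0.248) and Gad1 by 0.032 (adjusted p = 0.586). Neither of the pair that separated, Slc32a1 and Gad2, passed the adjusted threshold. Control replicate 1 was left out because it stood apart in genes described here. For Slc32a1 and Gad2 it was the only control array not below the Dp1Yey arrays, so leaving it out fixed their separation in advance. On the same 9 arrays 3.25% of the genes outside the duplication separated upwards. Those genes did not guide the choice of array, so this share is not a like background. In the fit without control replicate 1, 5 of 26 genes had an unadjusted p under 0.05 (Slc32a1 and Gad2 higher, Gabra3, Gabra4 and Gabrd lower). Outside the duplication the shares were 8.74% for higher and 9.56% for lower. In that fit 0 of 26 were called, against 0.45% outside. The same limit holds for these shares.

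The lineage factors Dlx1 and Dlx2, homeodomain proteins that set the fate of forebrain interneurons, shared the high value of control replicate 1. Dlx1 measured 8.53, 8.21, 8.38, 8.07 and 8.25 in Dp1Yey and 8.82, 8.23, 8.20, 7.95 and 8.16 in control, and Dlx2 measured 7.12, 7.06, 7.05, 7.09 and 7.22 against 7.52, 7.14, 7.02, 7.18 and 7.08. Set against the mean of the other 9 arrays, control replicate 1 was higher by 0.60 for Dlx1, 0.41 for Dlx2, 0.34 for Gad2, 0.28 for Slc32a1 and 0.14 for Gad1. Interneuron genes as a whole were not higher on it. By the same measure the mean of 26 other interneuron markers and lineage factors was −0.0042. Calb2 (1.55) and Dlx6 (0.57) were higher, whereas Vip (−0.878), Tac1 (−0.628) and Pvalb (−0.334) were lower. The same array was above the others by 1.25 in the mean of the choroid plexus markers and by 0.23 in that of the 8 striatal markers. The striatal markers were uneven on it. Drd2 was higher by 0.72, Isl1 by 0.52, Penk by 0.24, Ppp1r1b by 0.22, Drd1 by 0.14 and Gpr6 by 0.078. Foxp1 (−0.014) and Rgs9 (−0.065) were lower. The mean of the oligodendrocyte markers was also higher on this array, by 0.20. The part of other tissue in these values was not tested.

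**Figure D3:**
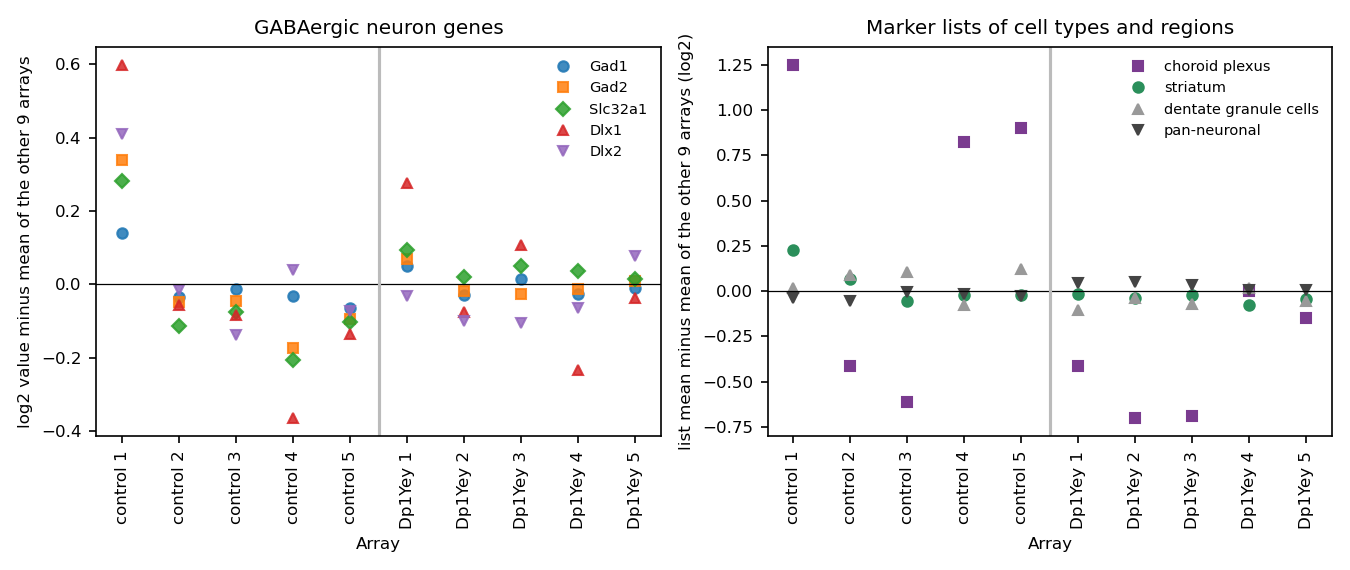
Each array's log2 value minus the mean of the other 9 arrays (y axes), for 5 genes of GABA-releasing neurons on the left and for the means of 4 marker lists on the right. Control replicate 1 is the highest array for all 5 genes and for the choroid plexus and striatal lists, while its pan-neuronal and dentate means lie near 0. Choroid plexus is also high in control replicates 4 and 5, where the 5 genes are not.

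As a description over 10 arrays that share their normalisation, Gad2 and Slc32a1 correlated with r = 0.939, and with r = 0.914 over the 9 arrays without control replicate 1. Gad1 correlated with Gad2 at 0.923 (0.701 without that array) and with Dlx1 at 0.920 (0.789). The correlations of Dlx2 with the other 4 genes, between 0.598 and 0.780, rested on control replicate 1 and were between −0.240 and −0.0195 without it. Gad1, Gad2, Slc32a1 and Dlx1 thus also varied together over the other 9 arrays, and Dlx2 did not vary with them. The correlations pool both groups without removing the group means. The group differences of Slc32a1 and Gad2 on those 9 arrays therefore enter them.

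The genes of astrocytic uptake and of breakdown of GABA gave estimates close to 0. Slc6a11, the GABA transporter of astrocytes, differed by −0.0049 (95% CI −0.11 to 0.10, adjusted p = 0.964). Abat, the transaminase that degrades GABA, measured 11.44, 11.61, 11.54, 11.47 and 11.63 in Dp1Yey and 11.67, 11.72, 11.42, 11.43 and 11.58 in control. The groups overlapped throughout, with the highest and the lowest array both in control. The difference was −0.025 (95% CI −0.16 to 0.11, adjusted p = 0.844).

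The chloride transporters act in opposite directions, Slc12a2 (NKCC1) importing chloride and Slc12a5 (KCC2), a neuronal gene, exporting it. Slc12a2 measured 9.51, 9.62, 9.60, 9.44 and 9.50 in Dp1Yey and 9.82, 9.54, 9.56, 9.50 and 9.66 in control. Slc12a5 measured 10.86, 10.87, 10.88, 10.88 and 10.83 in Dp1Yey and 10.89, 10.94, 10.91, 10.89 and 10.87 in control. Control replicate 1 was the highest array for Slc12a2, and both genes overlapped between groups. Their differences were −0.084 (95% CI −0.21 to 0.046, adjusted p = 0.436) and −0.035 (95% CI −0.097 to 0.027, adjusted p = 0.493). The Slc12a2 difference was −0.033 without control replicate 1 (adjusted p = 0.720). The log2 value of Slc12a2 minus that of Slc12a5 on each array averaged −1.33 ± 0.0749 (SD) in Dp1Yey and −1.28 ± 0.139 in control. That difference of −0.048 gave p = 0.540 in a two-sided exact permutation test over 252 assignments of arrays, whose smallest p is 0.00794. The difference between the transporters was 0.0038 without control replicate 1.

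Slc12a2 is also strongly expressed by choroid plexus epithelium. The 3 arrays with the most choroid plexus marker signal were control replicates 1, 5 and 4, with list means of 8.72, 8.40 and 8.33, and their Slc12a2 values were 9.82, 9.66 and 9.50. The values of control replicates 1 and 5 were the highest Slc12a2 values of the 10 arrays, and the value of control replicate 4 was within the range of the arrays with little choroid plexus signal. All 10 choroid plexus markers exceeded the background level. Their part in the Slc12a2 difference was not tested.

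**Figure D4:**
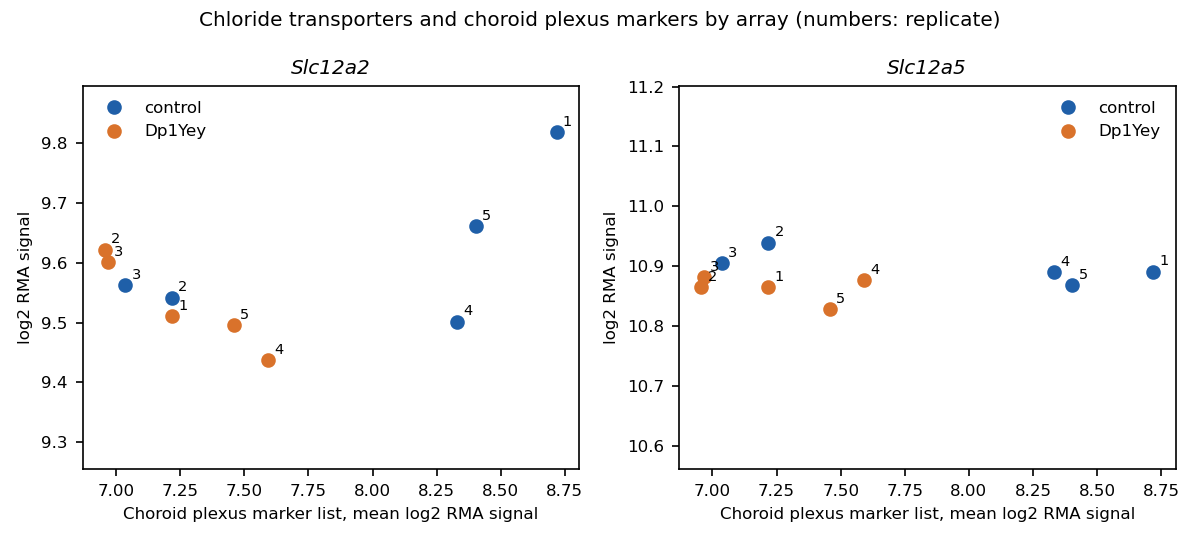
The log2 RMA signal of Slc12a2 (left) and Slc12a5 (right) on each array (y axes, drawn over the same span) against the mean log2 signal of 10 choroid plexus markers (x axis), with replicate numbers beside the points. For Slc12a2, control replicates 1 and 5 lie at the upper right, with 9.82 and 9.66, while Slc12a5 stays between 10.83 and 10.94 at all marker levels.

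The postsynaptic proteins gave estimates just below 0. Gphn encodes gephyrin, the scaffold that holds glycine and GABA-A receptors at the synapse, and measured 10.30, 10.42, 10.37, 10.40 and 10.30 in Dp1Yey and 10.43, 10.45, 10.41, 10.35 and 10.40 in control. Dp1Yey replicates 1 and 5 were lowest and the rest overlapped. The difference was −0.051 (95% CI −0.13 to 0.026, adjusted p = 0.422). Nlgn2, the adhesion protein of inhibitory synapses, differed by −0.054 (95% CI −0.15 to 0.042, adjusted p = 0.496), and by −0.026 without control replicate 1.

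Of the interneuron genes, Pvalb encodes parvalbumin of fast-spiking basket cells. It measured 9.27, 9.19, 9.36, 9.30 and 9.05 in Dp1Yey and 8.87, 8.90, 9.28, 9.34 and 9.17 in control. Control replicates 1 and 2 were low, and the other 3 control arrays lay among the Dp1Yey arrays. The difference was 0.12 (95% CI −0.076 to 0.33, adjusted p = 0.452), the highest estimate of the 26. It was 0.065 without control replicate 1, 0.072 without control replicate 2 and −0.025 without both. Lhx6, a factor of interneurons from the medial ganglionic eminence, was uniform in Dp1Yey (7.91 ± 0.019) and differed by 0.052 (95% CI −0.024 to 0.13, adjusted p = 0.412). Erbb4, the neuregulin receptor of interneurons, measured 9.99, 9.90, 9.96, 9.88 and 9.91 in Dp1Yey and 9.89, 9.90, 9.87, 9.86 and 9.88 in control. Dp1Yey replicates 1, 3 and 5 were above every control array, and the difference was 0.047 (95% CI −0.021 to 0.12, adjusted p = 0.406). For Dlx1 and Dlx2 the differences were 0.014 (95% CI −0.28 to 0.31) and −0.081 (95% CI −0.25 to 0.090), with adjusted p-values of 0.963 and 0.571. Leaving out control replicate 1, they were 0.15 (95% CI −0.039 to 0.34) and 0.0013, with adjusted p-values of 0.359 and 0.989.

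The spread among mice was unequal between groups. In 21 of 26 genes the SD was larger among control than among Dp1Yey arrays (80.8%, against 70.9% of the genes outside the duplication), with median SDs of 0.0872 and 0.0546. Without control replicate 1 this held for 14 of 26 (53.8%, against 66.5%). Control replicates 1 and 2 held the highest value in 10 and 9 of the 26 genes, and these arrays held the highest value in 13.7% and 32.4% of the genes outside. The lowest value was in control replicate 4 for 7 genes and in Dp1Yey replicate 5 for 6, and these arrays held the lowest value in 14.3% and 11.9% of the genes outside. The unequal spread was not tested.

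Other genes of the same pathways, in 5 lists that held 79 measured genes, gave a single call, against 0.5% of the genes outside the duplication. The call was Npy, neuropeptide Y, in the list of 26 other interneuron markers and lineage factors: it measured 10.66 to 10.81 in Dp1Yey and 10.42 to 10.58 in control, a rise of 0.21 (95% CI 0.12 to 0.30, adjusted p = 0.0359, limma). The call was lost without any one array except control replicate 3. In that list 15 genes were above 0 and 11 below, the median was 0.026, and 6 had an unadjusted p under 0.05, all higher in Dp1Yey, where 8.45% of the genes outside were higher by that measure. They included Tac1, the substance P precursor (0.48, adjusted p = 0.0894), Cnr1, the cannabinoid receptor of cholecystokinin basket cells (0.15, adjusted p = 0.110), and Reln, which encodes reelin (0.17, adjusted p = 0.128). Tac1 was low on control replicates 1 and 2, at 6.81 and 6.86, against 7.30 to 7.41 on the other controls and 7.46 to 7.83 in Dp1Yey.

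Of 9 other genes of GABA transport and metabolism, 7 estimates were above 0 and 0 genes were called. The lowest p-values were those of Slc38a3, a glutamine transporter (0.29, adjusted p = 0.169), and Slc6a13, the GABA transporter of meninges and liver (0.36, adjusted p = 0.227). Of 14 other genes of chloride transport and its regulators, 9 were below 0 and 0 were called. Slc12a3, the thiazide-sensitive cotransporter best known from kidney, came closest: it measured 5.67 to 5.86 in Dp1Yey and 5.89 to 6.09 in control, without overlap but little above the background level, with a difference of −0.21 (95% CI −0.32 to −0.11, adjusted p = 0.0628). Of 24 other genes of the inhibitory scaffold and receptor trafficking, 15 were below 0 and 0 were called, with Hap1, a trafficking partner of huntingtin, at the lowest p (−0.22, adjusted p = 0.145). Of 6 other GABA-A receptor subunits, 1 exceeded the background level and 0 were called. The medians of these 4 lists were 0.026, −0.034, −0.039 and −0.018, against −0.015 outside the duplication.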

How the data were processed

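RNA of 10 hippocampi (5 Dp1Yey, 5 control) had been hybridised to Affymetrix Mouse Gene 1.0 ST arrays. The values deposited by the authors are log2 signals from robust multi-array average (RMA), which corrects background, normalises probes between arrays and summarises each probe set. RMA, limma and mm10 are named in the submitters' processing notes. It is not stated in the sources used here whether other arrays shared the normalisation, and the input RNA differs between the labels and the methods. The platform annotation gave 1 symbol to 21789 of 35556 probe sets, several to 1621, and did not list 12146. Each gene took its probe set of highest mean, which left 19938 genes, 19855 of them with RefSeq (GRCm38.p6) coordinates.

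Groups were compared by lmFit and eBayes of limma 3.58.1 (R 4.3.3), two-sided, with Benjamini-Hochberg adjustment over all genes and a threshold of 0.05. The study's methods name FCROS, and a rank statistic of that kind (trimmed by 0.25, with limits of 0.025 and 0.975) was an alternative. Other alternatives were other scalings, filters, weights and covariates, and leaving out arrays. All 26 genes are named. Values on every array are given for those with an unadjusted p under 0.05, for the gene of highest signal in each role, for the chloride transporters and for Gabra6. Up to 4 genes of smallest p represent each pathway list. The genes, lists and tests were chosen with earlier results of these data known. Of the listed pathway and marker genes, 18 were not matched to a single-symbol probe set and were not analysed here. Arrays give no read depth, and their number limits the precision.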

Additional observations from a re-analysis of the deposited data

Results flagged for a closer look

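Each of the 26 genes was checked in both groups for a single array far from the rest, by the gap to the nearest array as a share of the group's range. This share exceeded Dixon's critical value of 0.71 for 5 samples in 4 of 52 checks, and chance alone gives about 1 in 20. Control replicate 1 was the high array for 3 genes of GABA-releasing neurons: Gad1 at 11.3 (gap share 0.741), Gad2 at 10.5 (gap share 0.753) and Slc32a1 at 8.79 (gap share 0.728). Control replicate 2 was the high array for Gabra4, at 11.2 (gap share 0.785). No Dp1Yey array was found by this check. The part of other tissue in these arrays was not tested.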

How the results depend on the processing

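None of the 26 genes was called under any alternative, and the lowest adjusted p was 0.0815 (Slc32a1 without control replicate 1). Of 545 differences of single genes under the alternatives, 494 kept their direction and 51 reversed, and 14 of 26 genes kept it in every one. The number of genes above background was 25 with each of 3 levels. Outside the duplication 99 genes were called, and 22 (without Dp1Yey replicate 3) to 174 (without control replicate 3) with 1 array left out. There were 174 with array weights, 45 with a replicate block, 11 with each array's interquartile range as a covariate, 621 by the rank statistic and 244 (230 higher, 94.3%, against 78.8%) after centring on all probe sets, an alternative chosen after seeing the data. The pathway lists held 1 call, and 0 to 1 with 1 array left out. They held 0 after median centring, with the replicate block, with the interquartile range or without control replicates 1 and 2, 2 with the mean of all probe sets or with every probe set on its own, and 7 by the rank statistic. The number of the 26 genes with an unadjusted p under 0.05 was 1 to 5 with 1 array left out and 4 without control replicates 1 and 2. The Slc12a2 minus Slc12a5 difference ran from −0.077 to 0.0038.

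Replicate numbers occur in both groups, but nothing ties same-numbered mice to each other, and correlations of their deviations from the group means ran from −0.321 to 0.191, so they were not treated as pairs. With a replicate block 0 of the 26 genes were called.

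Reversed differences ran from −0.066 for Dlx1 to 0.083 for Abat, and the cause was not tested. With all arrays the median absolute difference of the 26 genes was 0.051. After quantile normalisation they were −0.017 for Gabrg1, −0.013 for Gad1, −0.012 for Gad2 and −0.012 for Dlx1. With array weights they were 0.018 for Slc6a11 and 0.0050 for Abat. After centring on all probe sets they were 0.027 for Gabra5, 0.0073 for Gabbr2, 0.042 for Slc6a11, 0.021 for Abat and 0.011 for Slc12a5. With the interquartile range as a covariate they were 0.020 for Gabra5, 0.016 for Gabbr2, 0.063 for Slc6a11, 0.083 for Abat, −0.054 for Pvalb and 0.022 for Dlx2. Without control replicates 1 and 2 they were 0.022 for Gabra5, 0.0061 for Gabbr2, 0.050 for Slc6a11, 0.062 for Abat, 0.0060 for Nlgn2, −0.025 for Pvalb and 0.011 for Dlx2. With 1 array left out the range was −0.039 to 0.0041 for Gabra5, −0.020 to 0.044 for Gabrg1, −0.014 to 0.032 for Gad1, −0.030 to 0.085 for Gad2, −0.029 to 0.025 for Slc6a11, −0.062 to 0.014 for Abat, −0.066 to 0.15 for Dlx1 and −0.12 to 0.0013 for Dlx2.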
